A study of Homo sapiens with 6 samples.

Results

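The 9 genes described here make, break down or bind hyaluronan in the pericellular matrix, and they were chosen by symbol from the deposited table of 23754 features, in which all 9 were found. They comprise the hyaluronan synthases HAS1, HAS2 and HAS3, the genes HYAL1, HYAL2 and CEMIP for hyaluronan breakdown, the cell surface receptor CD44, the large proteoglycan versican (VCAN) and the secreted hyaluronan-binding protein TNFAIP6, also called TSG-6. RNA was sequenced from IMR-90, a human fetal lung fibroblast line, in 3 libraries of cells given 2 µg/mL doxycycline for 4 days to induce a hairpin against ZNF469 (DOX+, labelled Sh-ZNF469) and in 3 libraries of cells without doxycycline (DOX-, labelled Control). The labels give the control genotype as wild-type, whereas the methods describe the same stably transduced line without induction. In that description both groups carried the Tet-pLKO-puro vector with the sh-2 hairpin, and the line had been selected with 0.5 µg/mL puromycin. The induced libraries had doxycycline and the hairpin together, so the effects of the drug and of the knockdown cannot be told apart, and 1 hairpin in 1 cell line was sequenced. The submitters call the libraries technical replicates, so p-values measure only the spread between these libraries.

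Hyaluronan is a long, unsulfated sugar polymer that synthases in the plasma membrane extrude directly into the matrix. Fibroblasts anchor it through CD44, and versican binds it through its globular head while its chondroitin sulfate chains hold water, so that together they form a swollen coat around the cell. TNFAIP6 attaches heavy chains of inter-alpha-inhibitor to hyaluronan, and hyaluronidases and CEMIP cut the polymer into fragments. Coats rich in hyaluronan and versican are known from fibrotic and injured lung.

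Counts per library ranged from 34057675 to 36120260, and 13991 features passed the filter on low counts. ZNF469, the target of the hairpin, had 118, 112 and 126 CPM (counts scaled to library size with the TMM method) in the DOX- libraries and 80.4, 80.4 and 79.6 CPM in the DOX+ libraries, so that 67.5% of its level remained. Fibroblast markers were abundant, with a summed level of 8 markers of 36650 to 37780 CPM in DOX- and 27280 to 28200 CPM in DOX+ libraries. Of the 8, the matrix genes COL1A1 (15509 to 9610 CPM), COL1A2 (10083 to 7107 CPM), COL3A1 (784 to 556 CPM) and DCN (1640 to 1443 CPM, DOX- to DOX+ means) were called lower by edgeR at a false discovery rate (FDR) under 0.05, and VIM, THY1, PDGFRA and PDGFRB, at 98.6% to 103% of their DOX- means, were not called. The epithelial markers KRT5 and SFTPC, the endothelial markers PECAM1 and CDH5 and the T cell marker CD3E had 0 counts in all 6 libraries, and the pan-leukocyte marker PTPRC had at most 6. Of the other markers on these lists, the lysosomal gene CD68 was at 58.8 to 66.7 CPM, the endothelial gene VWF had 14 to 31 counts, and the epithelial genes EPCAM and CDH1 had at most 14 and 4. The smooth muscle markers MYH11 and DES summed to 2.42 to 3.43 CPM in DOX- and 3.53 to 4.12 CPM in DOX+ libraries. The part of other cells in the results was not tested. DOX+ replicate 2 scored 32.8 on the first principal component (23.9% of the variance), and the scores of the remaining libraries lay between -12.6 and 0.524. In bulk RNA, fewer cells expressing a gene cannot be told apart from less RNA per cell.

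Of the 9 genes, VCAN alone was called at that FDR threshold, and it was higher in DOX+ cells. By edgeR's quasi-likelihood test 1.12% of all 13991 features were called, 0.400% higher and 0.715% lower in DOX+ cells. HAS2 had a higher estimate that did not pass the FDR threshold, and CEMIP and HYAL2 differed by little. CD44 stayed within 3% of its DOX- mean in every DOX+ library, and the values of HAS3 and TNFAIP6 were too scattered to compare. HYAL1 was not called either. It passed the filter on low counts only through its DOX+ libraries, so a higher estimate was a condition of its being tested. HAS1 was not detected. The median log2 fold change of the 8 tested members, HYAL1 included, was 0.08, against -0.0019 for all features. None of the 9 met both the FDR threshold and the study's additional criterion of an absolute log2 fold change over 1. In the edgeR fit used here 0.0429% of features met both. The paper reported many more genes under these criteria, and it does not name its test. HYAL1 passed the fold criterion alone, under the same limit from the filter. The plot of levels by library shows each of these values.

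**Figure D1:**
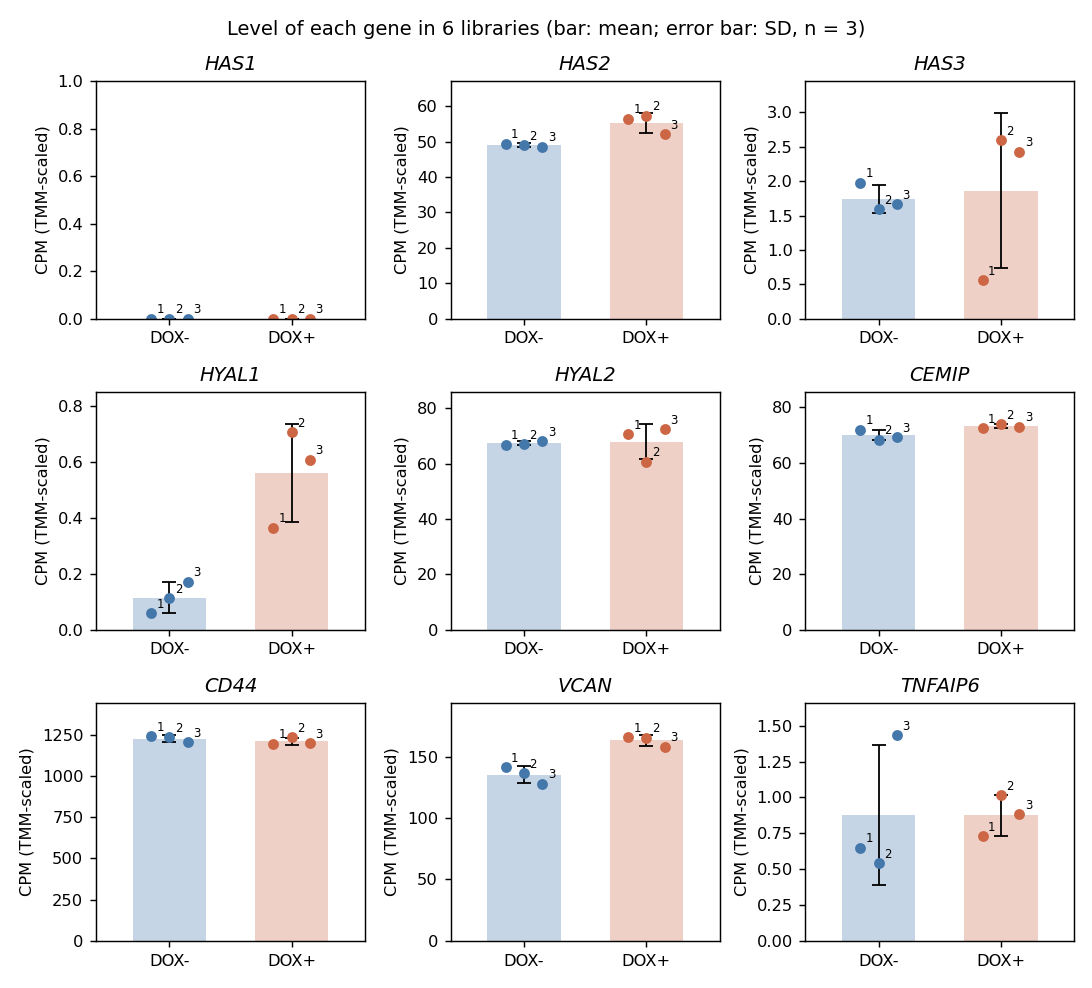
Level of each of the 9 genes in TMM-scaled CPM (vertical axes, starting at 0 and different for each gene) in the 3 DOX- and 3 DOX+ libraries; numbered points are libraries, bars are means and error bars are SD. VCAN, HAS2, HYAL1 and CEMIP have every DOX+ library above every DOX- library, as had 9.73% of all features tested. HYAL1 passed the filter on low counts only through its DOX+ libraries. HAS1 is at 0 throughout.

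Among the matrix proteins, VCAN (ENSG00000038427) lies on chromosome 5 of GRCh38 from 83471618 to 83582303 on the plus strand, and its canonical transcript has 15 exons and 12345 bp. It had 4786, 4805 and 4459 counts in DOX- replicates 1, 2 and 3, and 5912, 5869 and 5728 counts in DOX+ replicates 1, 2 and 3. After scaling these were 141, 137 and 128 CPM in DOX- and 166, 166 and 158 CPM in DOX+ libraries. The groups did not overlap, and the lowest DOX+ library was above the highest DOX- library, as it was for 9.73% of all features tested. VCAN rose to a DOX+ mean of 163 ± 4.32 CPM (SD, n = 3), where the DOX- mean was 135 ± 6.84 CPM (SD, n = 3). On the log2 scale the change was 0.27 with a standard error of 0.0443, and edgeR's adjusted p was 0.00791. This is a fold of 1.21 with a 95% interval of 1.13 to 1.29. An exact two-sided permutation test of the 6 values gave p = 0.1, the smallest that 3 libraries against 3 allow. The call was lost without DOX+ replicate 1 (edgeR adjusted p = 0.0776, log2 fold change 0.26) and kept without DOX+ replicate 2 (edgeR adjusted p = 0.0213). Of the exonic bases of VCAN, 3.09% are also exonic in VCAN-AS1 on the opposite strand, and the strand setting of the counting is not given in the sources used here, so reads of the antisense RNA cannot be told apart there.

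TNFAIP6 (ENSG00000123610, chromosome 2, 151357592 to 151380046) was near the limit of counting. It had 22, 19 and 50 counts in the DOX- libraries and 26, 36 and 32 in the DOX+ libraries, and DOX- replicate 3 was above all others. The log2 fold change was 0.0017 with a 95% interval of -0.83 to 0.84 (edgeR adjusted p = 0.999). Without DOX- replicate 3 it was 0.56, and the sign turned when DOX- replicate 1 or 2 or DOX+ replicate 2 or 3 was left out.

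Of the synthases, HAS2 was the most abundant (ENSG00000170961, chromosome 8, 121612116 to 121641440, minus strand), and it is known for long hyaluronan chains in mesenchymal cells. HAS2 had 49.4, 49.0 and 48.5 CPM in the DOX- libraries and 56.5, 57.3 and 52.1 CPM in the DOX+ libraries. Every DOX+ library was above every DOX- library, as it was for 9.73% of all features tested. The estimate was 1.13-fold with a 95% interval of 1.05 to 1.21, or 0.17 on the log2 scale with a standard error of 0.0487, and it missed the FDR threshold in edgeR's test (adjusted p = 0.117, unadjusted 0.00342). DESeq2's test gave an adjusted p of 0.048 and a call, in a fit that called 1.86% of features higher. Its log2 fold change stayed between 0.15 and 0.22 when each library was left out. Exons of the antisense gene HAS2-AS1 cover 5.92% of its exonic bases.

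HAS3 (ENSG00000103044, chromosome 16, 69105653 to 69118719), a synthase active in epithelia among other tissues, had 67, 56 and 58 counts in DOX- libraries. In the DOX+ libraries it had 20, 92 and 88 counts, with replicate 1 below and replicates 2 and 3 above every DOX- library. The log2 fold change of 0.09 had a 95% interval of -0.77 to 0.96 (edgeR adjusted p = 0.94), and its sign turned with limma-voom and when DOX+ replicate 2 or 3 was left out. Without DOX+ replicate 1 the log2 fold change was 0.53. Exons of CHTF8 on the opposite strand share 7.02% of its exonic bases, and CHTF8 itself was at 78.3 to 82.6 CPM in DOX- and 81.4 to 83.3 CPM in DOX+ libraries (log2 fold change 0.05, edgeR adjusted p = 0.658). HAS1 (ENSG00000105509, chromosome 19, 51713112 to 51723991) had 0 counts in each of the 6 libraries, which allows up to 0.0831 to 0.0881 CPM per library at a floor of 3 counts (counting error only). HAS2 thus held 93.9% to 98.1% of the summed synthase FPKM in every library.

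Among the members for hyaluronan breakdown, HYAL2 and CEMIP were the more abundant at the RNA level. Of other breakdown genes, CEMIP2 and HEXA had means of 14.7 and 32.1 FPKM over the 6 libraries. HYAL2 (ENSG00000068001, chromosome 3, 50317790 to 50322782), which encodes a surface-anchored hyaluronidase, was at 66.9, 67.1 and 68.2 CPM in DOX- and 70.8, 60.7 and 72.5 CPM in DOX+ libraries. The DOX+ values lay on both sides of the DOX- values, with replicate 2 lowest. The log2 fold change was 0.013 with a 95% interval of -0.12 to 0.14 (edgeR adjusted p = 0.945). HYAL2 shares 11.5% of its exonic bases with TUSC2 on the same strand, and TUSC2 was at 23.3 to 25.4 CPM in DOX- and 22.4 to 23.4 CPM in DOX+ libraries (log2 fold change -0.10, edgeR adjusted p = 0.47).

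CEMIP (ENSG00000103888, chromosome 15, 80779343 to 80951776), which encodes a protein needed for hyaluronan depolymerization in skin fibroblasts, was at 72.0, 68.4 and 69.4 CPM in DOX- libraries. It was at 72.5, 74.0 and 73.1 CPM in DOX+ libraries, so that the groups did not overlap but nearly touched. Of all features tested, 9.73% had every DOX+ library above every DOX- library. The estimate was 1.05-fold with a 95% interval of 0.984 to 1.11 (edgeR adjusted p = 0.488). Its neighbour MESD, with exons over 2.94% of its exonic bases on the opposite strand, was at 58.8 to 59.3 CPM in DOX- and 62.0 to 62.7 CPM in DOX+ libraries (log2 fold change 0.08, edgeR adjusted p = 0.384).

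HYAL1 (ENSG00000114378, chromosome 3, 50299890 to 50312381), which encodes a lysosomal hyaluronidase, was the rarest of the detected genes. It had 2, 4 and 6 counts in the DOX- libraries and 13, 25 and 22 in the DOX+ libraries. All DOX+ values were above all DOX- values, but the gene passed the filter on low counts only through the DOX+ libraries, so a difference was a condition of its being tested. Summed over groups, 60 counts against 12 gave a scaled ratio of 4.84 with an exact 95% interval of 2.58 to 9.89, which covers counting error only. The edgeR log2 fold change of 2.24, with a standard error of 0.561, did not pass the FDR threshold (adjusted p = 0.0808), and DESeq2 assigned it no adjusted p (unadjusted 0.00143). Even in DOX+ libraries HYAL1 was at most 0.705 CPM, and HYAL2 held at least 98.6% of the summed FPKM of HYAL1 and HYAL2. HYAL3, which is not a member, is left out of that sum and had a mean of 1.9 FPKM over all libraries.

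CD44 (ENSG00000026508, chromosome 11, 35138882 to 35232402), the main hyaluronan receptor of fibroblasts, was the most abundant of the 9 genes. It was at 1242, 1236 and 1204 CPM in DOX- and 1197, 1235 and 1200 CPM in DOX+ libraries, and the groups overlapped. The log2 fold change was -0.02 with a 95% interval of -0.074 to 0.035 (edgeR adjusted p = 0.768), the narrowest interval among the 8 tested members. With library size scaling the log2 fold change had the opposite sign, at 0.0011.

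**Figure D2:**
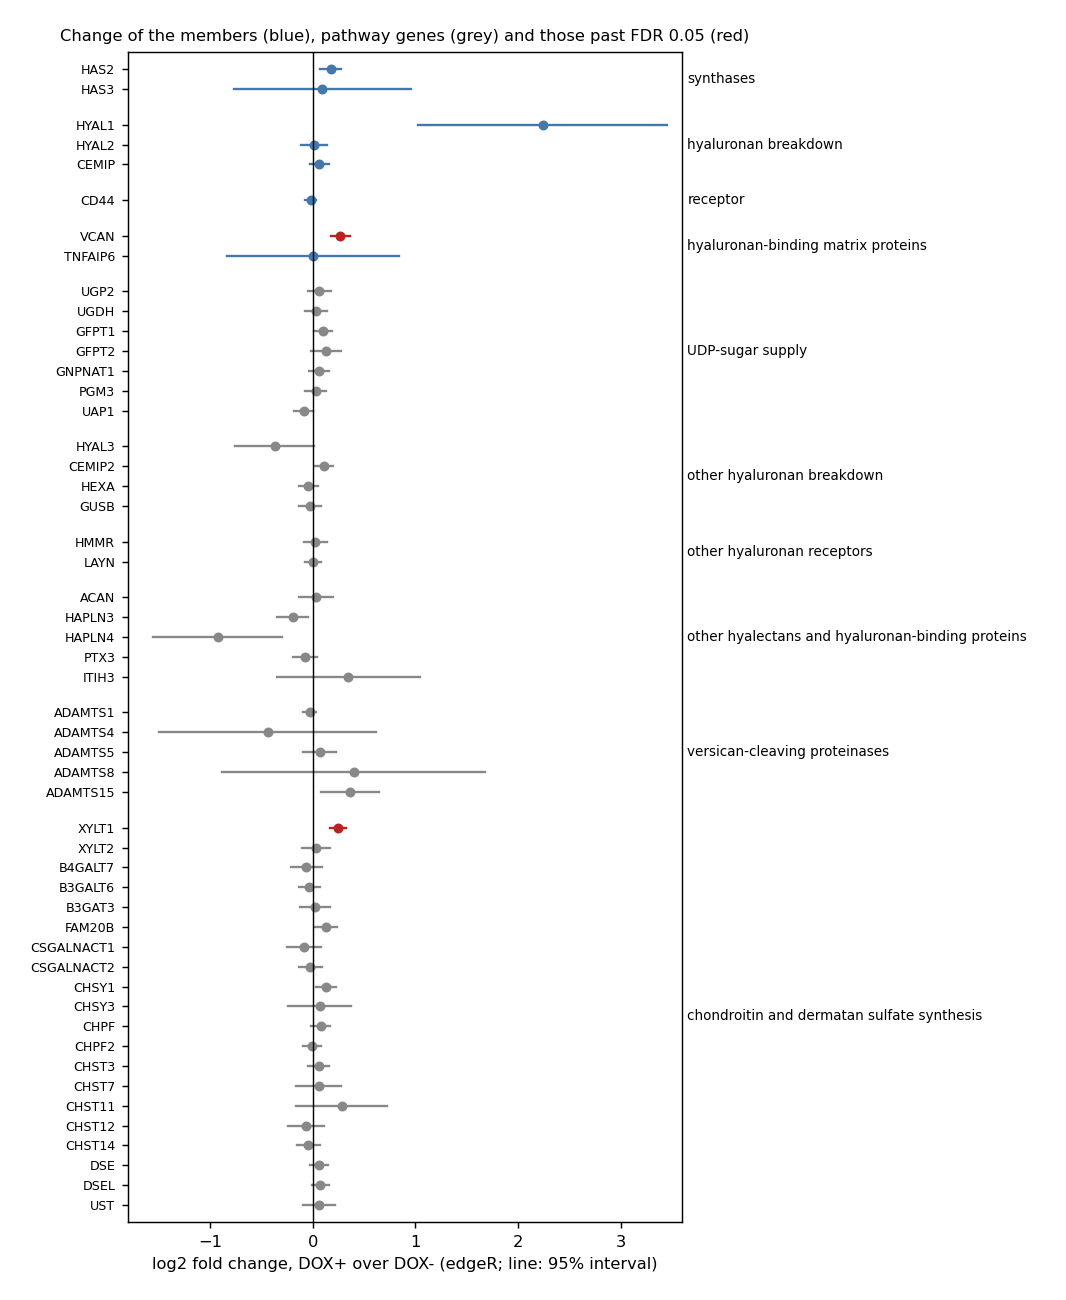
Log2 fold change of DOX+ over DOX- libraries (horizontal axis) with its 95% interval from edgeR for the 8 members and 43 of the 44 pathway genes that passed the filter, ordered by role; members are blue, pathway genes grey and genes with FDR under 0.05 red. VCAN at 0.27 and XYLT1 at 0.25 are the red points, and HYAL1 at 2.24 has the widest interval among the members, from 1.03 to 3.46.

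Levels were compared between genes per transcript length, in the deposited FPKM. The mean over 6 libraries was 311 FPKM for CD44, 23.1 for HYAL2, 12 for VCAN, 11.3 for HAS2, 9.07 for CEMIP, 0.547 for TNFAIP6, 0.484 for HAS3 and 0.118 for HYAL1. VCAN and HAS2 did not separate in this order, since their ranges of 10.0 to 13.9 and 10.3 to 12.7 FPKM overlapped, nor did TNFAIP6 and HAS3. HAS3 was above HYAL1 in 6 of 6 libraries although their ranges over all libraries overlapped. The other neighbours in the order had separate ranges.

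**Figure D3:**
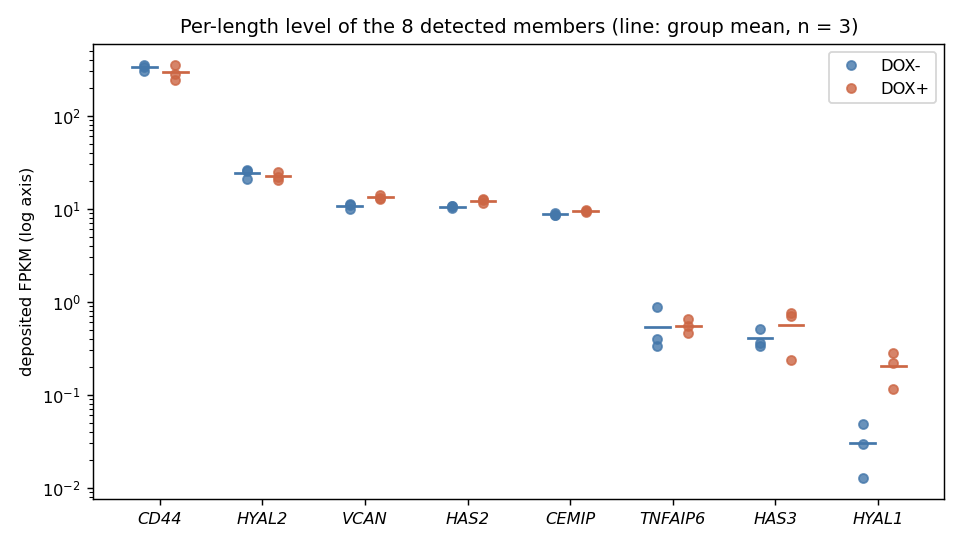
Deposited FPKM (vertical log axis) of the 8 detected genes, ordered by mean level, with a point for each library and a line for each group mean. CD44 is above 240 FPKM in every library, HYAL2, VCAN, HAS2 and CEMIP lie between 8.54 and 25.9 FPKM, and the other 3 lie below 1 FPKM.

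The deposited FPKM and the CPM from the deposited counts diverged for several members, among them CD44. Its FPKM was 352, 336 and 302 in DOX- libraries and 354, 283 and 240 in DOX+ libraries, which is 107%, 85.7% and 72.8% of the DOX- mean for DOX+ replicates 1, 2 and 3, whereas its CPM was 97.5%, 101% and 97.8% of the DOX- mean. The length that links count and FPKM was set to 4240 bp for HAS2, which has 1 annotated transcript, in every library. On that scale it was 3.23, 3.36 and 3.59 kb for CD44 in DOX- libraries and 3.13, 4.12 and 4.65 kb in DOX+ libraries. CD44 has 38 annotated transcripts, among them CD44-201 with 9 exons and 4.29 kb and CD44-208 with 18 exons and 5.43 kb. Without this scaling the largest length of CD44 was 1.47 times the smallest, and 1.75% of the 9138 features with over 10 CPM had a ratio as large, against a median of 1.04. The ratio was 1.3 for HYAL2 and 1.08 for VCAN. It was larger than that of CD44 for HAS3 (1.98) and HYAL1 (1.84), which had few counts and lie outside that set. For CD44, DOX+ replicate 1 lay with the DOX- libraries, so no difference between the groups was read from its length. The part of transcript choice in that length was not tested. For VCAN the same length was 11.3 to 11.6 kb in DOX- and 11 to 12 kb in DOX+ libraries, between the annotated transcripts VCAN-203 (14 exons, 9.46 kb) and VCAN-201 (15 exons, 12.3 kb), and its FPKM and CPM moved together.

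**Figure D4:**
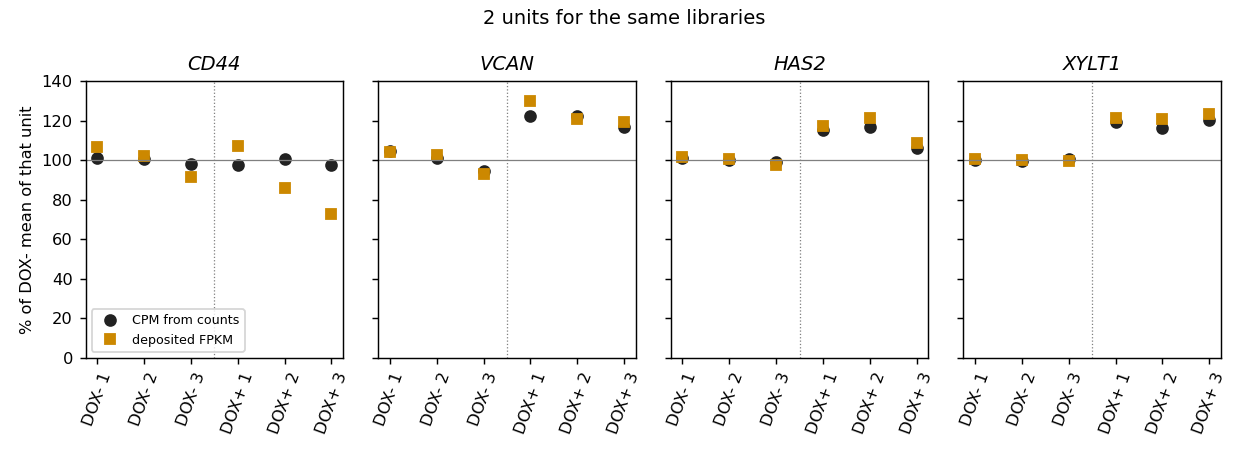
CPM from the counts (black circles) and deposited FPKM (orange squares) of CD44, VCAN, HAS2 and XYLT1 in each library, as a percentage of the DOX- mean of the same unit (vertical axis, from 0). For CD44 the FPKM of DOX+ replicate 3 is at 72.8% while its CPM is at 97.8%, and for the other 3 genes both units are above 100% in every DOX+ library.

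The wider pathway was described with 62 further genes for hyaluronan and versican metabolism, of which 44 passed the filter and 5 had 0 counts in all libraries. Only XYLT1 was called, higher in DOX+ cells, and 0 were called lower, where 0.400% of all features were called higher and 0.715% lower. At an unadjusted p under 0.05, 6 were higher and 2 lower, where 7.31% and 7.69% of all features were. The 6 were XYLT1, CHSY1, ADAMTS15, CEMIP2, GFPT1 and FAM20B, and the 2 were HAPLN4 and HAPLN3. The median log2 fold change of the 44 was 0.03, against -0.0019 for all features. The groups did not overlap for 7 genes higher and 2 lower in DOX+ cells, compared with 9.73% and 10.6% of all features.

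XYLT1 (ENSG00000103489, chromosome 16, 17101769 to 17470960, minus strand) encodes a xylosyltransferase that starts chondroitin sulfate chains, the kind that versican carries, by adding xylose to serine. It was at 127, 127 and 128 CPM in DOX- libraries and 152, 148 and 153 CPM in DOX+ libraries, with a narrow spread within each group and no overlap. The log2 difference was 0.25 with a standard error of 0.0369 (edgeR adjusted p = 0.00524), or 1.19-fold with a 95% interval of 1.12 to 1.25. The call was kept in all 6 fits that left out a library, with edgeR adjusted p-values from 0.00615 to 0.0458. XYLT2, the other xylosyltransferase, had a log2 fold change of 0.03 (edgeR adjusted p = 0.87) and was named after its values were seen.

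Of the 20 tested genes for chondroitin and dermatan sulfate synthesis, the other 19 were not called, where 1.12% of all features were called in either direction. The subunits CHPF and CHPF2 of the chain polymerase, the most abundant of the group per length, had log2 fold changes of 0.08 and -0.0080 (edgeR adjusted p = 0.435 and 0.948). The 7 genes for the UDP-sugars from which hyaluronan is built were all tested and 0 were called, a count too small to set against that share. UAP1, which makes UDP-N-acetylglucosamine, was at 179 to 191 CPM in DOX- and 168 to 181 CPM in DOX+ libraries (log2 fold change -0.09, edgeR adjusted p = 0.363). UGP2, which makes UDP-glucose, had a log2 fold change of 0.06 (edgeR adjusted p = 0.605).

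Among other genes of hyaluronan breakdown, HEXA, which encodes a subunit of a lysosomal hexosaminidase, had a log2 fold change of -0.04 (edgeR adjusted p = 0.705). CEMIP2 was at 99.6 to 102 CPM in DOX- and 105 to 110 CPM in DOX+ libraries (log2 fold change 0.11, edgeR adjusted p = 0.228). HYAL3, named after its values were seen, had 180, 119 and 148 counts in DOX- and 109, 117 and 132 in DOX+ libraries. Its log2 fold change was -0.37 (edgeR adjusted p = 0.355). HYAL4 and SPAM1 had 0 counts throughout. Of the other receptors, LAYN (layilin) was at 141 CPM in all 3 DOX- libraries and 139 to 143 CPM in DOX+ libraries (log2 fold change 0.0015, edgeR adjusted p = 0.992), and HMMR was at 40.4 to 44.4 CPM and 42.9 to 44.8 CPM (log2 fold change 0.03, edgeR adjusted p = 0.863). LYVE1, STAB1 and STAB2, receptors of lymphatic and sinusoidal endothelium and of macrophages, had at most 5 counts in any library.

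Of the other hyalectans and hyaluronan-binding proteins, the link protein gene HAPLN3 was at 24.6 to 25.3 CPM in DOX- and 20.5 to 23.7 CPM in DOX+ libraries, with no overlap (log2 fold change -0.20, edgeR adjusted p = 0.207). PTX3, whose product crosslinks hyaluronan with heavy chains, had a log2 fold change of -0.07 (edgeR adjusted p = 0.553). HAPLN4, named after its values were seen, had 53, 39 and 46 counts in DOX- and 23, 23 and 29 in DOX+ libraries (log2 fold change -0.93, edgeR adjusted p = 0.16). ITIH1 and ITIH5 had 0 counts, and ITIH2, ITIH4 and AMBP, which encode parts of inter-alpha-inhibitor and related serum proteins, had at most 8 in any library. ITIH3, a heavy chain gene of the same family, had 19, 32 and 32 counts in DOX- and 45, 30 and 34 in DOX+ libraries (log2 fold change 0.35, edgeR adjusted p = 0.661). Of the proteinases that cut versican, ADAMTS1 was the most abundant, at 626 to 646 CPM in DOX- and 621 to 629 CPM in DOX+ libraries (log2 fold change -0.03, edgeR adjusted p = 0.659). ADAMTS5 had a log2 fold change of 0.07 (edgeR adjusted p = 0.716).

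The promoter sequences of VCAN and XYLT1 are shown because these were the genes called among the members and the pathway. They are taken from RefSeq (GRCh38.p14) and cover bases before the annotated start, cut where the first GENCODE exon of the gene begins. Capitals mark matches on either strand to the GC box GGGCGG or to the core of a SMAD-binding element, which has the letters CAGAC. The 2 motifs do not overlap here. The windows are chr5:83471494-83471617 (plus strand, 124 bases) and chr16:17470961-17471210 (minus strand, 250 bases).
VCAN: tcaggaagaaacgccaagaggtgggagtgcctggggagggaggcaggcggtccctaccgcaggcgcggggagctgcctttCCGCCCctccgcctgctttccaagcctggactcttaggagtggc
XYLT1: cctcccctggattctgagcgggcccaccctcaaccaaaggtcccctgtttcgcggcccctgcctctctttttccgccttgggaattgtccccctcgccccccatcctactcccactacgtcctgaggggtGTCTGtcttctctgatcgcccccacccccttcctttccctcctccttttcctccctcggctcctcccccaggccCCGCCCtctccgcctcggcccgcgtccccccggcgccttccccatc

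Both windows were GC-rich, at 66.9% for VCAN and 67.6% for XYLT1, and each held 1 GC box. In the 250 bases before the start, a GC box was found in 42.6% of 35116 RefSeq promoters and a CAGAC core in 38.0%, the latter in XYLT1 but not in VCAN. The TATA box TATAAA matched in 10.7% of promoters, the CCAAT box in 32.0% and the AP-1 site TGANTCA in 6.57%, and VCAN and XYLT1 had 0 matches to these 3 motifs. Among the 8 members with a RefSeq promoter here (none was available for HAS2), the CAGAC core matched in HAS1, HYAL1, CEMIP and TNFAIP6, which were not called. The GC box matched in all of the 8 but HYAL2 and TNFAIP6. The TATA box matched in CEMIP alone, and the CCAAT box and the AP-1 site in TNFAIP6 alone.

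By the root mean square difference of centred log2 CPM over the 6 libraries, the genes closest to VCAN among 9659 with a mean log2 CPM over 3 were RGS4 (0.0277), NFAT5 (0.0296) and ZNF195 (0.0327). For HAS2 they were TMED7 (0.0212), DCBLD2 (0.0215) and HAUS6 (0.0217). RGS4 was at 100.3 to 111 CPM in DOX- and 127 to 134 CPM in DOX+ libraries. DCBLD2 was at 496 to 518 CPM in DOX- and 553 to 588 CPM in DOX+ libraries. With 6 libraries in 2 groups, this likeness mainly reflects the group means and is a description of these libraries.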

How the data were processed

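The 6 IMR-90 libraries were read from both ends (150 bp). The methods and the submitters' processing notes name a quality filter, HISAT2 for alignment, the GRCh38 build and StringTie. Versions, annotation release and counting step are not given in the sources used here. The authors deposited whole-number counts per gene without normalization, and FPKM values, which entered no test and served to compare levels between genes, to set against the CPM of the same gene and to derive the length that links both units. Dropping 17 stray lines left 23754 features. Counts were analysed with edgeR 4.0.16 in R 4.3.3: filterByExpr (minimum count 10), TMM, a quasi-likelihood test between the groups, and p-values adjusted by Benjamini-Hochberg across 13991 features. Standard errors were derived from the F statistic (absolute log2 fold change over its square root), and 95% intervals use the t distribution of that test and are not adjusted. Coordinates, exons and overlaps came from GENCODE 44, which may not be the authors' release.

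Members, lists and tests were chosen with earlier results of these data known. Genes named are ZNF469, the 9 members, listed genes overlapping them, pathway genes past the FDR threshold or among the 2 highest of their group by FPKM, and the 3 closest profiles to VCAN and HAS2. Genes at or under 8 counts, XYLT2, HYAL3, HAPLN4 and ITIH3 were added with their values in view. Values of 1 pathway gene, included in the counts, are not reported here. Alternatives were other filters and scalings, DESeq2 1.42.0, limma-voom (limma 3.58.1), other thresholds, a table without unannotated loci, leaving out each library, and the replicate number as a block. The edgeR script was run on simulated counts with changes larger than those of VCAN and XYLT1, so that run does not cover calls of their size. Pairs of libraries differed by a chi-square per degree of freedom of 4.65 to 8.47 within groups and 12.5 to 22.2 between groups, so all 6 were kept as separate libraries.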

Additional observations from a re-analysis of the deposited data

How the results depend on the processing

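VCAN was called in 14 of 15 refits (other filters, scalings and tools, each library left out, the block), with edgeR adjusted p = 0.0776 without DOX+ replicate 1. The number of members called higher was 2 with DESeq2, where 1.86% of all features were, and 0 to 1 with a library left out. At an unadjusted p under 0.05 in edgeR's test it was 3, where 7.31% of all features were higher. HYAL1 was among these 3, and it passed the filter on low counts only through its DOX+ libraries. With an absolute log2 fold change over 1 the number of members called higher was 0. Members called lower stayed at 0. Pathway genes called higher were 0 with that fold criterion, and 6 higher and 2 lower at an unadjusted p under 0.05. In leave-one-out fits 1 pathway gene was called higher and 0 lower. Over all features, 56 were higher and 100 lower as reported, 127 and 163 with every feature that had a count, 88 and 77 with library size scaling, 260 and 267 with DESeq2, 2 and 4 with the fold criterion, 19 and 54 at an FDR under 0.01, and 1023 and 1076 at an unadjusted p under 0.05. Leaving out a library gave 20 to 69 higher and 54 to 92 lower, the fewest without DOX+ replicate 1. ZNF469 had a log2 fold change of -0.57, past the FDR but not the fold criterion, and -0.61 to -0.52 with a library left out.

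Deviations of same-numbered libraries from their group means correlated at -0.024, -0.035 and 0.036, and those of differently numbered libraries at -0.033 to 0.058. With 3 libraries per group, these values cannot exclude a pairing by replicate number. The replicate block gave 135 features higher and 157 lower, against 56 and 100 without it, and changed the call of 0 members. With it, HAS3 turned to -0.066.

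Signs turned for genes that were not called. HAS3 was -0.18 with limma-voom, -0.22 without DOX+ replicate 2 and -0.14 without DOX+ replicate 3, and 0.53 without DOX+ replicate 1. HYAL2 was -0.016 and -0.035 without DOX+ replicates 1 and 3, and 0.089 without replicate 2. TNFAIP6 was -0.17 and -0.25 without DOX- replicates 1 and 2, and -0.12 and -0.0036 without DOX+ replicates 2 and 3, and 0.56 without DOX- replicate 3. With library size scaling CD44 was 0.0011 and CHPF2 0.013. CHPF2 was 0.026, 0.00082 and 0.0062 without DOX- replicate 3, DOX+ replicate 1 and DOX+ replicate 2, and -0.029 without DOX+ replicate 3. Leaving out a library gave -0.016 to 0.051 for HMMR and -0.0096 to 0.011 for LAYN. The causes were not tested. HYAL1 and TNFAIP6 had no value with a filter of over 1 CPM in 3 libraries. With under 100 counts per library for HAS3, HYAL1 and TNFAIP6, depth limits what these data show of them.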
